A study of Mus musculus with 12 samples.

Results

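The cytosolic ribosomal protein genes were followed in auditory cortex of acute brain slices that had been kept for 1 h in control artificial cerebrospinal fluid (aCSF) or in aCSF with a stimulating drug cocktail. Members were the loci whose symbol starts with Rpl, Rps or Rplp followed by a digit. Of 98 such rows, 10 Rps6k kinases and 2 pseudogenes (Rpl31-ps12 and Rpl34-ps1) were left out by the rule, so 86 members of 20989 loci remained. Of these, 76 encode subunit proteins of the ribosome (30 of the small subunit and 46 of the large subunit, 3 of which form the P-stalk) and 8 are paralogs of a subunit gene. The remaining 2, Rpl7l1 and Rps19bp1, match the pattern of the symbol but encode no ribosomal protein. Rpl7l1 is a ribosome assembly factor, and Rps19bp1 binds Rps19 and Sirt1. A filter on a mean FPKM of at least 1 (read fragments scaled to transcript length and to the depth of the library) over the 12 libraries left 81 members among the 12032 loci tested, and the 5 members below it (Rpl10l, Rpl37rt, Rpl39l, Rpl3l and Rps27rt) are described by their levels.

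The 12 libraries came from 6 C57bl6/J mice that were 4 weeks old, and each mouse gave 1 control and 1 cocktail library. Slices of 350 µm were divided at the midline, and the hemispheres of a slice went to different baths, so a comparison within a mouse sets one hemisphere against the other. The cocktail aCSF held 50 µM bicuculline (a GABA-A receptor antagonist), 100 µM norepinephrine, 50 µM carbamoylcholine (a cholinergic agonist), 100 µM dopamine, 40 µM ascorbic acid and 100 µM serotonin. For slices treated in this way the study's methods describe a further 1 h of rest in plain aCSF for both hemispheres, which the sample descriptions do not mention. The paper's RNA methods refer back to this protocol, so by the paper RNA was taken after this rest. No genetic manipulation is named for these mice in particular. The paper describes its experimental subjects in general as male and female offspring of H2B::PaGFP mice, which carry a photoactivatable histone label. It reports the sequencing in its section on slices of that line. Both groups shared the slicing and recovery steps, and RNA of whole dissected cortex was sequenced after poly-A selection.

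A ribosome consists of a small subunit, which reads the mRNA, and a large subunit, which forms the peptide bonds, and each protein is present in 1 copy per ribosome except those of the P-stalk. Most ribosomal protein mRNAs start with a C followed by a run of pyrimidines, the 5′ terminal oligopyrimidine (TOP) motif, through which mTOR signalling and the RNA-binding protein Larp1 set how strongly they are translated. In neurons, ribosomal protein mRNAs are also found in axons and dendrites, and the TOP control acts on translation, which FPKM of total poly-A RNA does not measure.

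The start sites of 65 members, 56 of them subunit genes, matched RefSeq entries of GRCm38.p6, the assembly that mm10 names. The windows below run from 10 bases before to 20 bases after the annotated start, 5′ to 3′ on the strand of the gene, with their longest pyrimidine run in capitals. They are shown for the genes the text returns to most: Rps6, the S6 kinase substrate; common reference genes (Rpl13a, Rps18); members at the ends of the comparison (Rpl7a, Rpl9, Rpl34, Rplp2); and the paralog pairs Rpl22l1 with Rpl22 and Rps27l with Rps27.
Rps6, chr4:86857348-86857377, minus strand: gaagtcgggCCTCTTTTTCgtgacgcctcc
Rpl13a, chr7:45128726-45128755, minus strand: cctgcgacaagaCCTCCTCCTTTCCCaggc
Rps18, chr17:33955646-33955675, minus strand: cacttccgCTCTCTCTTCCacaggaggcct
Rpl7a, chr2:26910797-26910826, plus strand: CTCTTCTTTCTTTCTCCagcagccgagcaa
Rpl9, chr5:65391412-65391441, minus strand: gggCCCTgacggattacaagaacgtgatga
Rpl34, chr3:130730379-130730408, minus strand: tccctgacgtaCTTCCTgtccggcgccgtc
Rplp2, chr7:141447641-141447670, plus strand: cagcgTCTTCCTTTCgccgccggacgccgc
Rpl22l1, chr3:28805498-28805527, plus strand: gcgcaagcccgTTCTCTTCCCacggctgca
Rpl22, chr4:152324426-152324455, plus strand: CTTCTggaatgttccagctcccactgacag
Rps27l, chr9:66946076-66946105, plus strand: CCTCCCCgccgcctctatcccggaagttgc
Rps27, chr3:90213629-90213658, minus strand: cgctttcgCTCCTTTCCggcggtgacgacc

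The runs seen within these windows were 4 (Rpl9) to 17 (Rpl7a) pyrimidines long, and that of Rps6 began 1 base before the annotated start. Over the wider window of 20 bases before to 30 bases after the start, 35 of the 56 subunit genes (62.5%) held a run of at least 7 pyrimidines, against 28.6% of the 32851 windows of the reference. The letters CTTTC or CTTCC stood in 31 of the 56 (55.4%), against 16.1% of all windows. Neither pentamer contains the other, although they may overlap in a run. On the opposite strand the same genes had the run in 6 windows (10.7%; all windows, 32.6%) and a pentamer in 15 (26.8%; all windows, 17.7%). These matches describe letters near an annotated start and locate no transcription start in these slices.

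The reads recovered from the FPKM intervals summed to 10600193 to 19768184 per library in the control group. In the cocktail group they summed to 13539422 to 17506709. These are reads assigned to the loci, a part of all reads sequenced. Values of single subunit genes rested on 303 to 9276 reads. Lists of markers for 6 brain cell types, choroid plexus and blood were checked. Markers of cortical cells were present in every library. The summed FPKM of 8 excitatory neuron markers lay between 2504 and 2862 in the control libraries and between 2393 and 2836 in the cocktail libraries. None of the 50 markers that passed the filter, over all lists, was called between the groups. Over all loci tested 1.5% were called, so 0 of 50 is near that share. All 8 inhibitory neuron and all 8 oligodendrocyte markers had a fitted change above 0 (medians 0.086 and 0.11 on the log2 scale). So had 7 of 8 astrocyte (0.065), 6 of 9 microglia (0.033), 4 of 8 endothelial (0.014) and 4 of 8 excitatory neuron markers (-0.020). The part of cell types in the values below was not tested. In bulk tissue, fewer cells of a type and less RNA per cell cannot be told apart. The control library of mouse 1 stood apart: across the 12021 loci with a known GC content, its deviation from the control mean had a Spearman correlation of 0.58 with GC content, against -0.35 to -0.013 in the other control libraries.

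The ribosomal protein genes were among the most abundant mRNAs of the control slices. The 76 subunit genes had a median control FPKM of 158 (quartiles 120 and 189), while the median of all loci tested was 10.2. Of the 563 loci with a mean control FPKM of at least 100, 63 (11.2%) were members. Among the 250 most abundant loci 33 were members, and among the 500 most abundant 60 were.

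Together the 86 members summed to 12860.1 ± 465 FPKM in the control slices (SD, n = 6; lowest 12383, median 12766, highest 13676), which was 4.14% ± 0.16 of the FPKM of all loci. The small subunit genes summed to 5346 ± 205 FPKM and the large subunit genes to 7400.4 ± 283 FPKM. The ratio of the large to the small subunit sum was 1.32 to 1.43 in the control libraries and 1.35 to 1.42 in the cocktail libraries, so the balance of the subunits differed little between any of them.

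Levels of single members were far from equal, although the proteins outside the P-stalk are needed in equal numbers. Reads with several placements had been dropped, which can lower members with near-identical pseudogene copies. The part of these dropped reads in the levels was not tested. The subunit genes ranged from 20.9 FPKM (Rps15a) to 599 FPKM (Rps29). The 5 highest were Rps29 at 599 ± 41.5 FPKM, Rpl41 at 484 ± 46.0, Rplp1 at 430.2 ± 31.3, Rps21 at 338 ± 23.8 and Rps15 at 327 ± 10.7 (SD, n = 6). Rps29, Rps21 and Rps15 belong to the small subunit, Rpl41 is the smallest protein of the large one and Rplp1 is an acidic P-stalk protein. At the low end stood Rps15a, Rpl14 (27.8 ± 1.85 FPKM), Rpl22 (29.6 ± 4.05), Rpl37 (36.0 ± 1.84) and Rplp2 (42.3 ± 2.04). FPKM is a level per length. The transcript taken for Rps15a was 5179 bases long, the longest among the subunit genes, whose median was 795 bases. Its 1079 to 1780 reads per library were no fewer than those of Rpl27 (734 to 1705). The 5 highest had short transcripts, of 390 (Rps29), 437 (Rpl41), 499 (Rplp1), 394 (Rps21) and 500 bases (Rps15). Rps29 rested on 2088 to 4398 reads per library, and Rpl3, at 242 FPKM, on 4478 to 9276. The part of length in the levels was not tested.

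**Figure D1:**
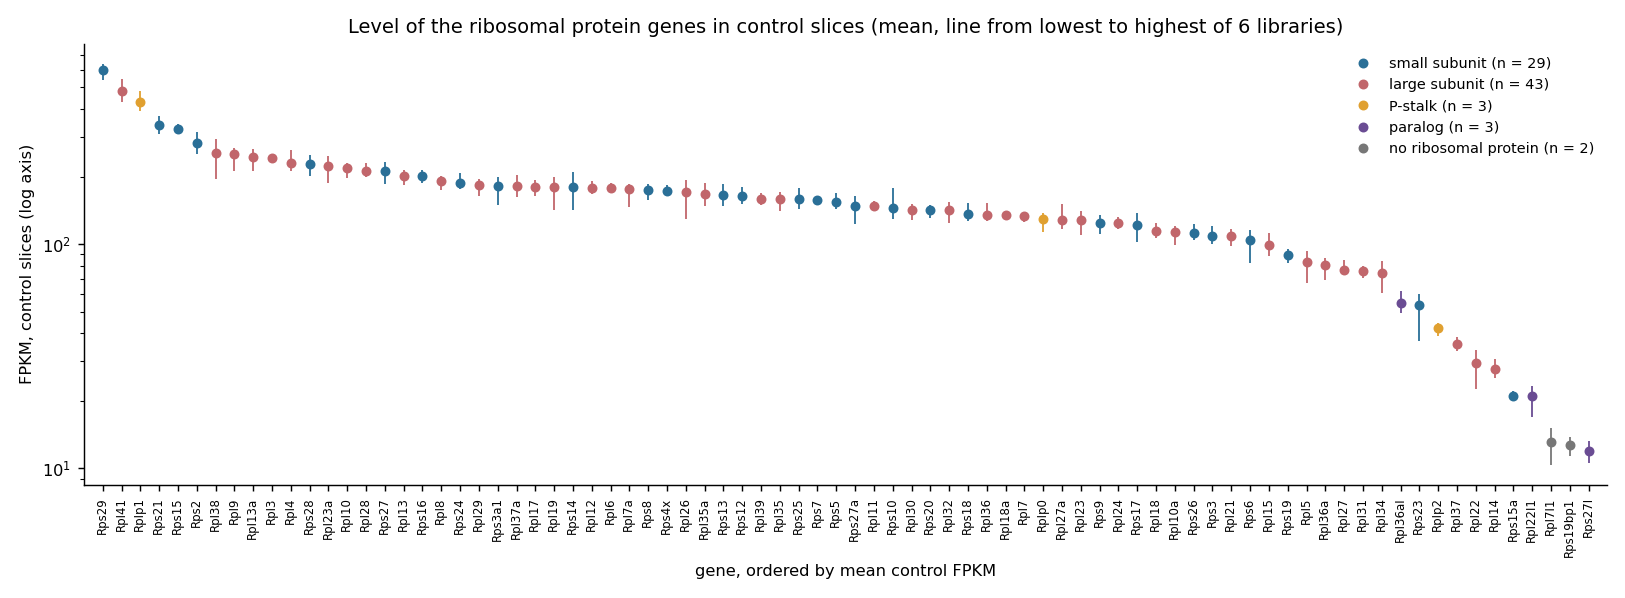
Mean FPKM (log axis) of 80 of the members tested in the 6 control libraries, ordered by level, with a line from the lowest to the highest library and colours for the subunit. The quartiles of the subunit genes are 120 and 189 FPKM, with Rps29 highest at 599 and the paralog Rps27l lowest at 11.9.

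The 3 P-stalk genes stood far apart in level, and the part of dropped reads with several placements in this was not tested. Rplp1 and Rplp2, the acidic proteins that form a dimer on the stalk, had control levels of 430.2 and 42.3 FPKM, and Rplp0, the base of the stalk, had 130 FPKM. Over the control libraries these 3 ranges did not overlap (Rplp2 38.8 to 44.4, Rplp0 113 to 137, Rplp1 391 to 481 FPKM).

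Spread over the 6 control mice was small for most members. The coefficient of variation of the subunit genes had a median of 6.92%, from 2.90% (Rpl3) to 16.3% (Rps23), and that of the 500 other loci with at least 100 FPKM had a median of 8.02%. For members in common use as reference genes it was 6.73% (Rplp0), 7.63% (Rpl13a), 7.95% (Rps18) and 11.2% (Rpl19). Among the 500 other abundant loci, 36.4% varied less than Rplp0 and 74.4% varied less than Rpl19.

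The comparison of cocktail with control slices asked whether 1 h of the cocktail, which the study used to raise neuronal activity, was followed by changes of these mRNAs. No member passed the test: 0 of 81 were called by limma at an adjusted p under 0.05, while 180 of all 12032 loci tested were (1.5%; 147 higher, 1.22%, and 33 lower, 0.274%). The smallest adjusted p of a member was 0.403. At an unadjusted p under 0.05 there were 3 members (3.70%), Rpl22l1, Rpl9 and Rpl7a, beside 8.05% of all loci. No member's control and cocktail values were free of overlap, against 0.914% of all loci.

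The fitted changes of the members were small and lay mostly above 0. The median was 0.039 on the log2 scale (0.0076 over all loci tested), with quartiles of 0.025 and 0.076, and the values ran from -0.050 (Rpl34) to 0.17 (Rpl22l1). A value above 0 was found for 72 of the 81 members (88.9%) and for 54.4% of all loci. This count depended on the scaling: it was 70 with median-of-ratios factors and 45 of 81 after quantile normalization, where the median was 0.0030. With voom, which replaces FPKM by recovered and weighted reads, it was 68. The 95% confidence interval lay within ±0.2 for 63 members and within ±0.3 for 79. The widest bounds of any member were -0.28 (Rpl34) and 0.34 (Rps23).

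**Figure D2:**
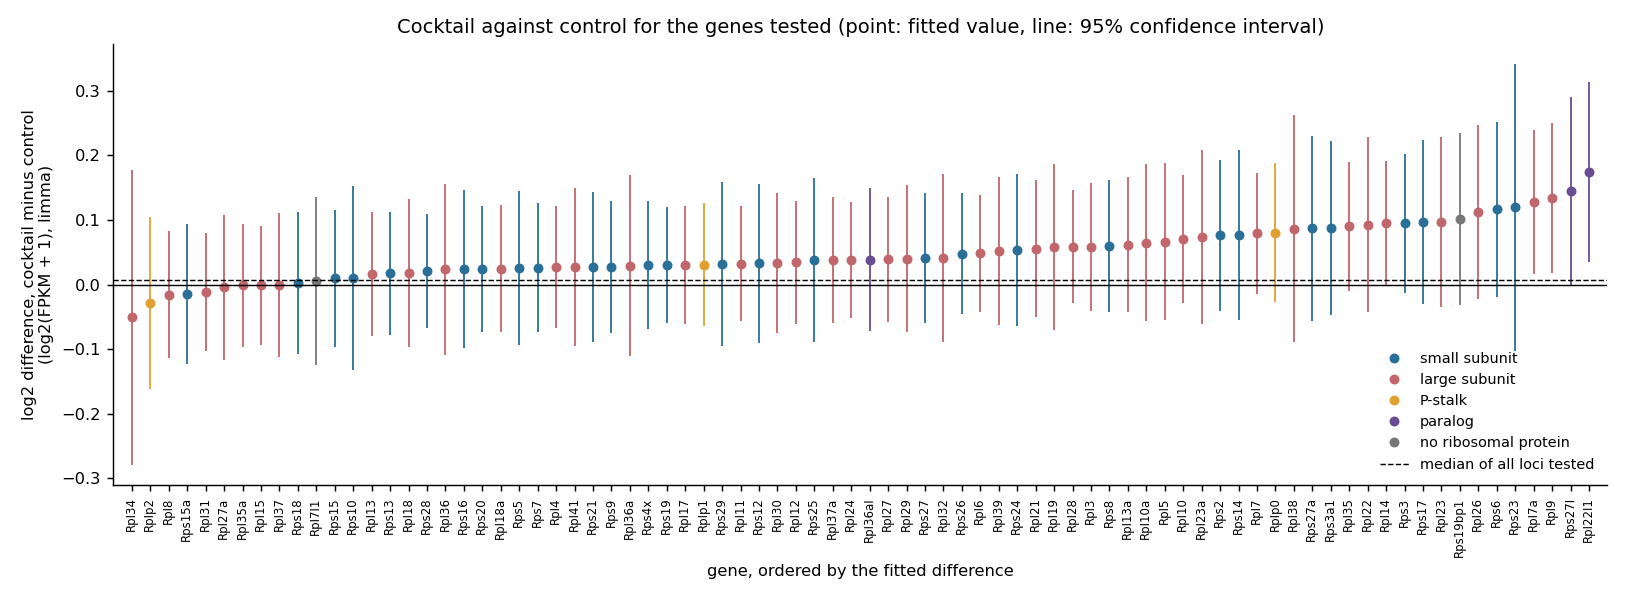
Fitted log2 difference (cocktail minus control) of 80 of the 81 members tested, with its 95% confidence interval, ordered by size, beside 0 and the median of all loci tested (dashed). Points run from -0.050 for Rpl34 to 0.17 for Rpl22l1, and only the intervals of Rpl22l1, Rpl9 and Rpl7a leave out 0.

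Of the small subunit genes 29 of 30 had a fitted value above 0 (median 0.032), and of the large subunit genes, P-stalk included, 38 of 46 (median 0.040). By the count of mice, 9 members (11.1%) were higher in the cocktail hemisphere of all 6 mice, against 3.64% of all loci, and none was lower in all 6, against 2.66%. Among them were Rpl7, Rpl7a, Rpl9, Rpl14, Rpl22l1, Rpl28, Rpl35 and Rps6. An exact two-sided permutation test flipped the signs of the 6 within-mouse differences. Any gene higher in all 6 mice gets a p of 0.031 in this test, the smallest that 6 pairs allow. This p thus follows from how these genes were picked and adds nothing to the count.

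Rpl22l1 (chr3), the paralog of Rpl22, had the largest fitted change. Its FPKM was 16.9 at the lowest, 21.3 at the median and 23.2 at the highest in the control libraries, and 21.5, 23.8 and 25.5 in the cocktail libraries. Every cocktail value lay above the control median, but the ranges overlapped. The fitted change was 0.17 ± 0.064 (SE; limma, adjusted p = 0.403), and within single mice it ran from 0.015 (mouse 5) to 0.49 (mouse 1). Without mouse 1 it was 0.11 (adjusted p = 0.512).

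Rpl9 (chr5), a large subunit protein, had control values of 211 FPKM at the lowest, 261 at the median and 269 at the highest, and cocktail values of 251, 275 and 297. The control library of mouse 1 was the lowest of all 12. The fitted change was 0.13 ± 0.053 (SE; limma, adjusted p = 0.487), with 0.41 in mouse 1 and 0.046 to 0.14 in the other mice. It was 0.079 without mouse 1 and 0.050 after quantile normalization.

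Rpl7a (chr2), also of the large subunit, showed the same layout: 147 FPKM in the control library of mouse 1, 173 to 186 in the other control libraries and 177 to 220 in the cocktail libraries. The fitted change was 0.13 ± 0.051 (SE; limma, adjusted p = 0.493), and it was 0.088 without mouse 1 and 0.047 with voom on recovered reads.

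Rps6 (chr4), the small subunit protein whose phosphorylation is used as a marker of active neurons, was at 82.8 FPKM in the control library of mouse 1, at 104 to 116 in the other control libraries and at 107 to 118 in the cocktail libraries. Mouse 1 had a difference of 0.48, and the other mice of 0.019 to 0.11. The fitted change was 0.12 ± 0.062 (SE; limma, adjusted p = 0.700) with all mice and 0.044 without mouse 1.

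Rps23 (chr13), which lies at the decoding centre, rested on mouse 1. Its control value there was 36.9 FPKM, while the other control libraries held 52.4 to 60.0 and the cocktail libraries 49.9 to 66.1. The fitted change of 0.12 ± 0.10 (SE; limma, adjusted p = 0.852) became -0.021 without mouse 1.

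At the other end were Rpl34, Rplp2, Rpl8, Rps15a and Rpl31, with fitted changes of -0.050, -0.029, -0.015, -0.015 and -0.012. Rpl34 had 60.3 FPKM at the lowest, 78.5 at the median and 84.2 at the highest in the control libraries, and 57.8, 74.4 and 82.3 in the cocktail libraries. Its differences went both ways, from -0.42 (mouse 2) to 0.42 (mouse 3). Rplp2 was lower in 5 of 6 mice, by amounts close to 0 in mice 3 and 4 and by up to 0.22 in mouse 1, and it was higher by 0.28 in mouse 2. For Rpl34 the counting itself was uncertain: the reads recovered from its FPKM were 13.3 times its deposited mean normalised count, where the median of this ratio over the subunit genes was 1.02.

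Among the reference genes, Rps18 had a fitted change of 0.0024 ± 0.050, Rpl19 of 0.058 ± 0.059, Rpl13a of 0.062 ± 0.048 and Rplp0 of 0.080 ± 0.049 (SE, n = 6 pairs). The intervals of these genes reached from -0.11 (Rps18) to 0.19 (Rplp0), so a change of 0.2 on the log2 scale lay outside all 4. Without mouse 1 the fitted changes were smaller for Rpl19 (0.010), Rpl13a (0.019) and Rplp0 (0.048). Rpl5 and Rpl11, which bind Mdm2 together with 5S rRNA when ribosome assembly is disturbed, had fitted changes of 0.067 ± 0.056 and 0.033 ± 0.041, and of 0.014 and 0.019 without mouse 1. Rps19, the gene most often mutated in Diamond-Blackfan anaemia, had 0.030 ± 0.041, and 0.017 without mouse 5.

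The summed FPKM of all members showed how far the mice differed. In the cocktail slices it was 13287 ± 849 FPKM (SD, n = 6; lowest 11907, median 13379.6, highest 14523), beside 12860.1 ± 465 in the control slices. Within mice the log2 ratio of the sums was 0.045 ± 0.062 (SD), from -0.057 to 0.11, and it was above 0 in 5 of 6 mice. The difference was thus smaller than its spread over mice. As a share of all FPKM the sum was 4.19% ± 0.25 in the cocktail and 4.14% ± 0.16 in the control slices.

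**Figure D3:**
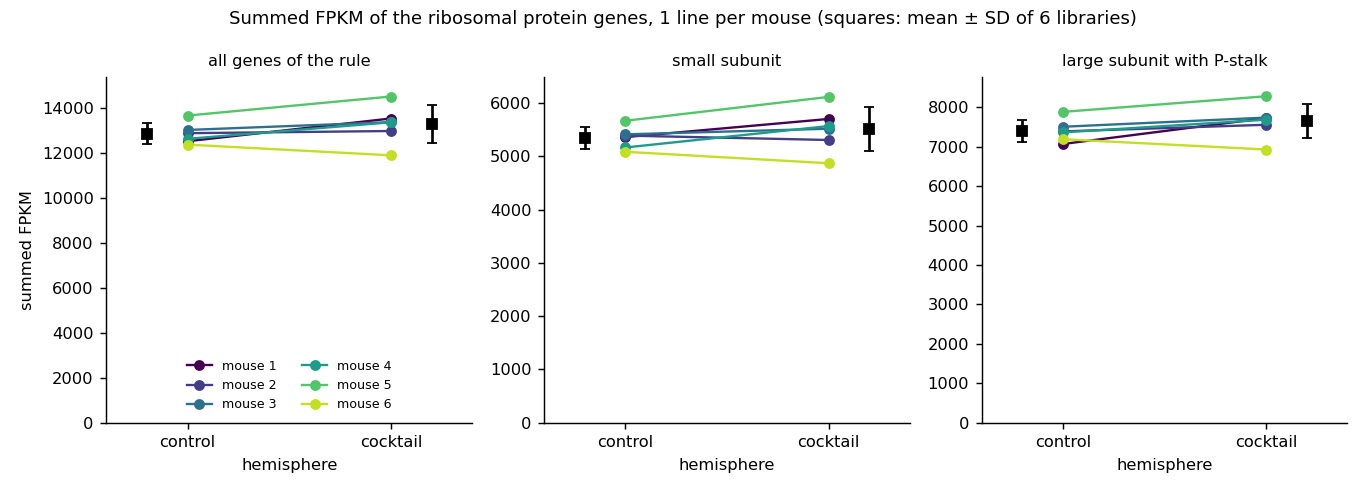
Summed FPKM of all 86 members, of the 30 small subunit genes and of the 46 large subunit genes in the control and the cocktail hemisphere, with 1 line per mouse and squares for the mean ± SD of 6 libraries. For all members, mouse 5 has the highest and mouse 6 the lowest sum in both hemispheres, and the line of mouse 6 goes down while the others go up.

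The members did not move alike in all mice. The median within-mouse difference of the 81 members was 0.10 in mouse 1, 0.0039 in mouse 2, 0.038 in mouse 3, 0.084 in mouse 4, 0.078 in mouse 5 and -0.047 in mouse 6. In mice 4 and 5 most members were higher in the cocktail hemisphere (68 and 66 of 81), and in mouse 6 most were lower (59 of 81). Over all loci the medians were 0.096, 0.0013, 0.024, -0.025, -0.048 and -0.020 in the same order. In mice 4 and 5 the members thus lay above the median of all loci by 0.11 and 0.13, in mice 1 to 3 by at most 0.014, and in mouse 6 below it by 0.027.

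Other mRNAs of like length and level followed a similar course in most mice. The 62 loci outside the rule with at least 100 FPKM and a transcript under 1000 bases had medians of 0.068 in mouse 4, 0.068 in mouse 5 and -0.051 in mouse 6. Mouse 1 departed most, where these loci had a median of -0.051 and the members 0.10. In mouse 2 the medians were -0.031 for these loci and 0.0039 for the members, and in mouse 3 they were 0.039 and 0.038. The part of transcript length and level in the members' values was not tested. The 77 mitochondrial ribosomal protein genes, whose products form the ribosome inside mitochondria, had medians from -0.018 (mouse 2) to 0.034 (mouse 1), and 0 of them were called.

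**Figure D4:**
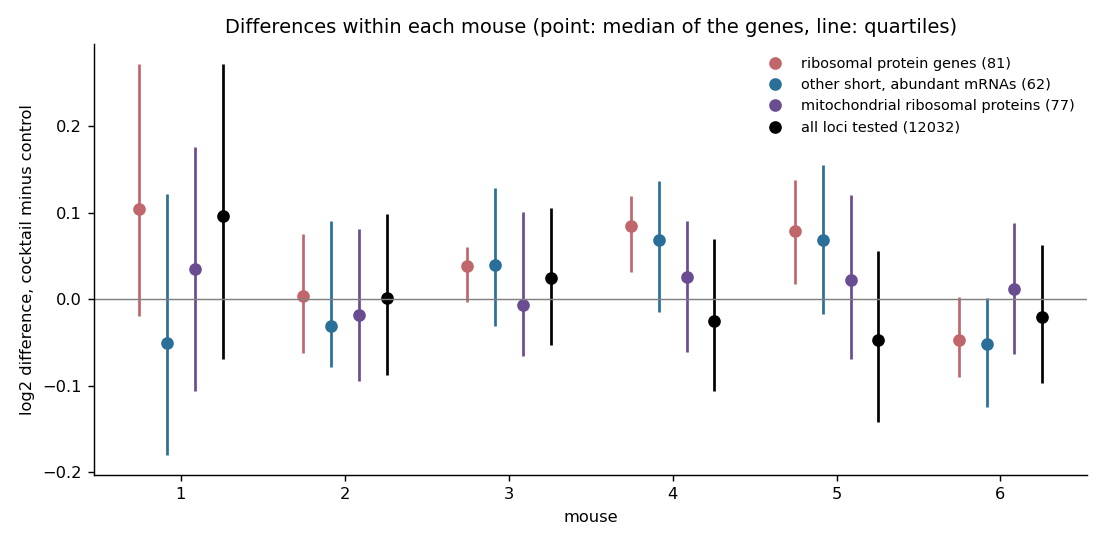
Within-mouse log2 difference, cocktail minus control, for the 81 members, 62 other short and abundant mRNAs, 77 mitochondrial ribosomal protein genes and all 12032 loci tested, as the median (point) and quartiles (line) of the genes in each mouse. The members and the short, abundant mRNAs lie above the loci as a whole in mice 4 and 5 and below 0 in mouse 6.

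In mouse 1 the members also spread more widely than in any other mouse. The SD over the 81 members of the within-mouse difference was 0.21 there and 0.082 to 0.12 in the others, and single values ran from -0.29 (Rps10) to 0.82 (Rps23). Across the 81 members, the mouse 1 difference had a Spearman correlation of -0.34 with GC content, and across all 12021 loci with a known GC content of -0.64. In mice 2 to 6 the latter was -0.074 to 0.22. These are correlations across genes, which are not independent replicates. The named members with the largest difference in mouse 1 were Rps23, Rpl22l1 and Rps6, with a GC content of 46.0%, 40.6% and 50.0%, beside a median of 51.7% over the subunit genes. Rpl38, named after its value was seen, had a larger difference (0.56) than Rpl22l1 and Rps6 at a GC content of 53.8%. After removal of each library's trend on length and GC content, Rpl22l1 had a fitted change of 0.15, Rpl9 of 0.12 and Rps23 of 0.089, and 0 members were called.

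The members varied together across libraries. Over the 12 libraries, with each group centred on its own mean, the median Pearson correlation between pairs of members was 0.49, and 88.7% of pairs were above 0. It was 0.55 within the small and 0.48 within the large subunit. The same figure was 0.28 for the short, abundant mRNAs outside the rule. It was 0.26 for 17 other genes with TOP-type mRNAs, most of them translation factors, and 0.15 for mitochondrial ribosomal proteins. The 500 other loci with at least 100 FPKM had 0.13 and all loci had 0.11. Genes of 1 library share its depth, scaling and base composition, so these are descriptions. After removal of the trends on length and GC content the value for the members was 0.37, and with median-of-ratios scaling it was 0.53, while that of all loci was 0.14 and -0.0010.

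Some libraries stood out. In the cocktail library of mouse 6, 79 of 81 members lay below the mean of the cocktail group, by 0.15 on average on the log2 scale. In the cocktail library of mouse 5, 78 lay above it, by 0.12, and in the control library of mouse 5, 73 lay above the control mean, by 0.091. The short, abundant mRNAs deviated by -0.12, 0.12 and 0.068 in these 3 libraries. Without mouse 5 the median correlation between members was 0.35, without mouse 6 it was 0.35, and without mouse 1 it was 0.67. With the within-mouse differences of the 6 mice in place of the 12 libraries, the median was 0.24 for the members and 0.096 for all loci. The order of the lists was then not the same. The 17 other genes with TOP-type mRNAs had 0.33, above the members. The short, abundant mRNAs had 0.12 and the mitochondrial ribosomal proteins 0.011.

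**Figure D5:**
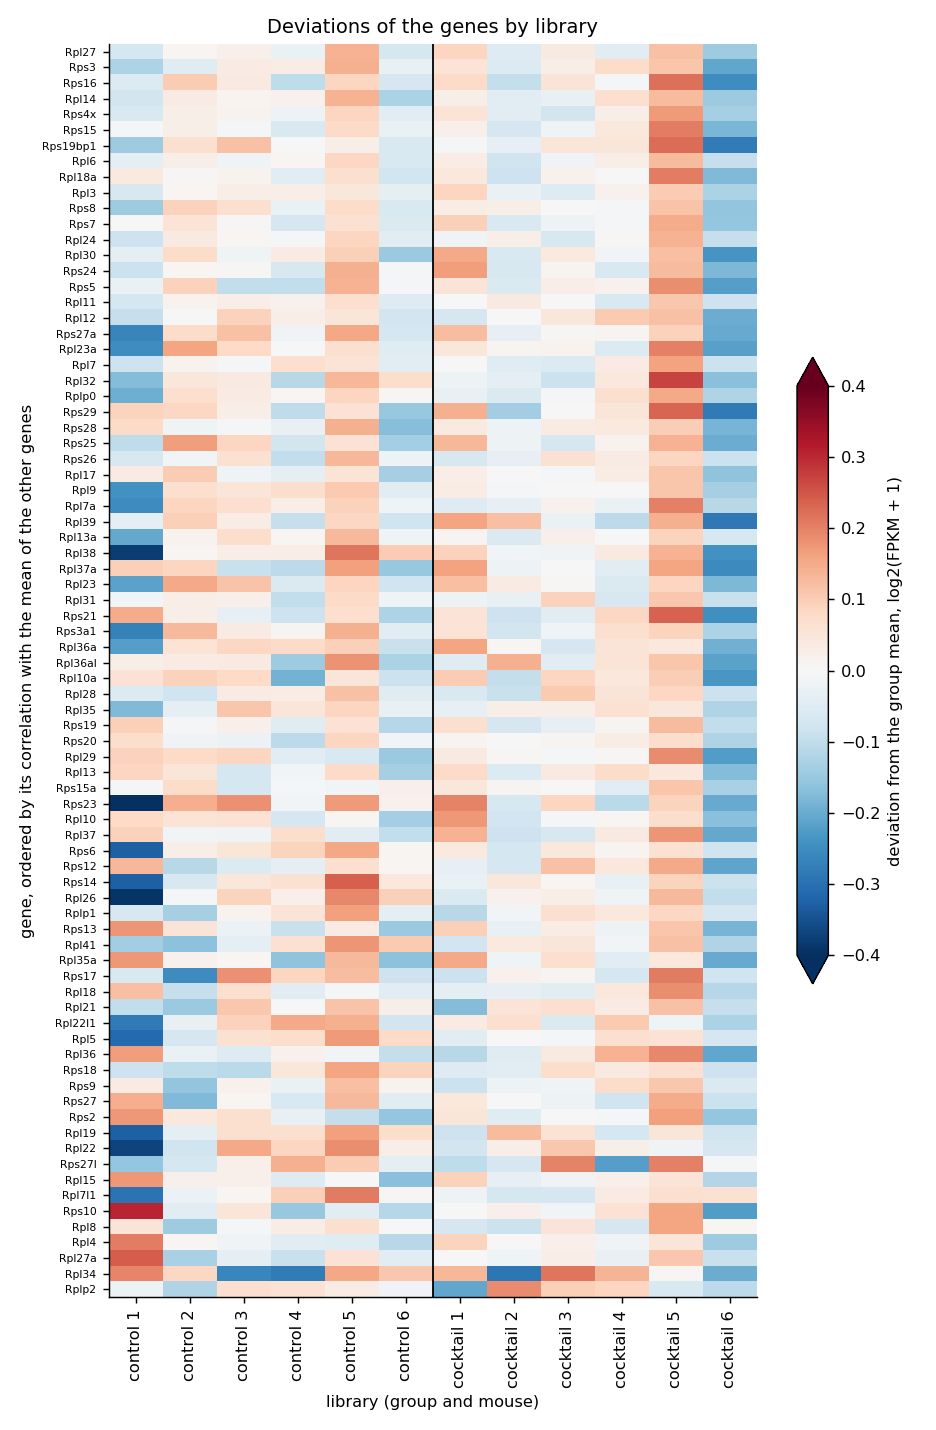
Deviation of 80 of the 81 members from the group mean (log2(FPKM + 1), colour from -0.4 to 0.4) in the 12 libraries, with genes ordered by their correlation with the mean of the other members. The cocktail library of mouse 5 is above and that of mouse 6 below the mean for nearly all genes, and the control library of mouse 1 is mixed.

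Over the 12 libraries, the correlation of a member with the mean of the other 80 had a median of 0.70 and exceeded 0.5 for 62 of 81. The highest values were those of Rpl27 (0.93), Rps3 (0.92) and Rps16 (0.91), and the lowest those of Rpl27a, Rpl34 and Rplp2, the last at 0.044. Large subunit genes thus stood at both ends.

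Of the 6018 loci outside the rule with a mean FPKM of at least 10, the 10 that most resembled the members' mean deviation over the 12 libraries included Ost4, Snrpe, Clu, Cox7a2, Esd, Tpt1, Pfdn5, Ntan1 and Coq2, with Pearson correlations from 0.95 (Ost4) to 0.86 (Coq2). Ost4 is a subunit of the oligosaccharyltransferase, Snrpe a spliceosomal Sm protein and Cox7a2 a subunit of cytochrome c oxidase. Tpt1 is a TOP mRNA. None of these genes was called between the groups.

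Ribosomal proteins whose symbols fall outside the pattern had levels in the same range. Fau, which encodes eS30 fused to a ubiquitin-like protein, was at 189 ± 17.5 FPKM in control and 203 ± 18.0 in cocktail slices (SD, n = 6). Gnb2l1 (Rack1), a small subunit scaffold, was at 118 ± 5.01 and 121 ± 10.7. Their fitted changes were 0.11 and 0.040, and neither was called. By likeness to the members' mean they ranked at 12 (Fau) and 207 (Gnb2l1). Rpsa, a small subunit protein named after its value was seen, ranked at 531, and the pseudogene Rpl34-ps1, named in the same way, at 870.

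The paralogs fell into expressed and nearly silent genes. Rpl22l1 made up 39.8% to 42.9% of the summed FPKM of the pair Rpl22 and Rpl22l1 in the control libraries and 40.1% to 44.8% in the cocktail libraries. The ratio of Rpl22l1 to Rpl22 was higher in the cocktail hemisphere of 5 of 6 mice, by 0.081 ± 0.054 on the log2 scale (SD), and the ranges of the share overlapped. Rpl22 itself was higher in 4 of 6 mice, with a fitted change of 0.093 ± 0.062 (SE) that was 0.034 without mouse 1.

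Rpl36al made up 36.6% to 44.4% of its pair with Rpl36a in the control and 37.0% to 42.7% in the cocktail libraries. The fitted changes were 0.039 for Rpl36al and 0.029 for Rpl36a. Rps27l, a paralog of Rps27 known as a p53 target, was a minor partner, at 4.34% to 6.13% of the pair in the control and 5.18% to 6.70% in the cocktail libraries. Its FPKM was 10.6 at the lowest, 11.8 at the median and 13.2 at the highest in the control libraries, and 11.2, 12.9 and 15.3 in the cocktail libraries. It was higher in 5 of 6 mice, by 0.15 to 0.32, and lower by 0.22 in mouse 4, and the fitted change was 0.14 ± 0.067 (SE; limma, adjusted p = 0.626). Rps27 had a fitted change of 0.041 ± 0.046.

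The other paralogs were near or at 0. Rpl3l, the striated muscle paralog of Rpl3, was at 0.047 to 0.42 FPKM over the 12 libraries, beside 242 FPKM for Rpl3 in the control slices. Rpl37rt was at 0.33 to 0.75 FPKM, and Rpl39l, listed at 0 in 6 of 12 libraries, did not exceed 0.23 FPKM. Rpl10l, the testis paralog of Rpl10, was listed at 0 in all 12 libraries, where Rpl10 was at 218 FPKM in the control slices. These values rested on 1 to 7 recovered reads per library for Rpl3l, 2 to 7 for Rpl37rt and 0 to 2 for Rpl39l, so a difference between the groups was not detectable at this depth.

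Rps27rt was marked as having too little data in all 12 libraries. It was listed at 0.0061 to 0.13 FPKM in 11 of them and at 8.52 in the cocktail library of mouse 3. Its locus in the files overlaps Rps27 on chr3, where reads of the pair cannot be told apart, while the RefSeq table used for the start sites has this symbol on chr9. For Rps27 the ratio of recovered reads to the deposited mean normalised count was 106, so the levels of both genes are uncertain. Over the subunit genes 74 of 76 had a ratio within 5% of 1, and Rps27 and Rpl34 were the exceptions.

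The 2 rows that encode no ribosomal protein were low. Rpl7l1 was at 13.0 ± 1.57 FPKM in control and 13.0 ± 0.59 in cocktail slices, with a fitted change of 0.0061 ± 0.060. Rps19bp1 was at 12.6 ± 0.87 and 13.7 ± 1.62, with 0.10 ± 0.061 (limma, adjusted p = 0.769).

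Of the genes that make, regulate or sense ribosomal proteins, in lists of 54, 33, 11 and 11 tested, 1 was called. Over all loci tested 1.5% were called, and a single call in lists of this size is near that share. Myc, the transcription factor that drives ribosome production in growing cells, rose from 3.71 ± 0.50 FPKM in control to 5.14 ± 1.18 in cocktail slices (SD, n = 6). The ranges overlapped (3.01 to 4.25 and 3.85 to 6.55), and Myc was higher in 6 of 6 mice, with a fitted change of 0.37 ± 0.076 (SE; limma, adjusted p = 0.0346). It was the only gene called of the 11 tested in the Myc network. The call was lost when mouse 1, 2, 4 or 5 was left out (limma, adjusted p = 0.0511, 0.147, 0.159 and 0.120). It was also lost with median-of-ratios scaling (adjusted p = 0.0527), quantile normalization (0.0647), no filter (0.140), voom on recovered reads (0.192) or no replicate block (0.293), where the fitted change was 0.36 to 0.37.

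None of the other lists held a called gene. Of 54 ribosome biogenesis genes, which process rRNA and assemble subunits, 30 had a fitted value above 0, with a median of 0.0098. Nolc1, a nucleolar chaperone, stood at the upper end (0.20 ± 0.067; limma, adjusted p = 0.346) and Taf1c, part of the RNA polymerase I selectivity factor, at the lower end (-0.20 ± 0.063; adjusted p = 0.269). Of the 33 genes of TOP control and mTOR signalling, 10 lay above 0 and 23 below (median -0.020). Rheb, the small GTPase that activates mTOR, had a fitted change of 0.21 ± 0.081 (limma, adjusted p = 0.466), and Eif4ebp1, a translation repressor that mTOR inactivates, had -0.34 ± 0.12 (adjusted p = 0.366).

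Of the 17 other genes with TOP-type mRNAs, most of them translation factors, 12 lay above 0 (median 0.040), a median near that of the members. Tpt1 was at 481 ± 18.3 FPKM in control and 518 ± 28.0 in cocktail slices, with a fitted change of 0.11 ± 0.045 (limma, adjusted p = 0.553). Among 11 genes of free ribosomal protein surveillance, Gltscr2, a nucleolar protein that binds Rpl11, was higher in 6 of 6 mice, at 31.7 ± 1.27 FPKM in control and 36.7 ± 2.97 in cocktail slices, with a fitted change of 0.20 ± 0.052 (limma, adjusted p = 0.112). Trp53 had -0.12 ± 0.055 (limma, adjusted p = 0.647).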

How the data were processed

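Poly-A RNA of 12 auditory cortex samples was sequenced in single 50-base reads. The authors removed rRNA reads with BWA 0.6.1, aligned the rest to mm10 with TopHat 1.4.1, keeping reads with 1 placement, and estimated bias-corrected FPKM per RefSeq gene with Cufflinks 1.3.0 (versions per the submitters' processing notes). The FPKM values were used as deposited. Keeping reads with 1 placement can remove reads that fit a processed pseudogene equally well and so lower members with near-identical copies. How far it did so here was not tested. The authors also counted reads with HTSeq 0.6.1p1 and deposited a mean normalised count per gene (a signal scaled by DESeq2 1.6.3), used here only as a check; the fold changes and p-values of their own comparison in that file were not used.

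Loci were joined by symbol and position. Values were tested on log2(FPKM + 1), so changes of low genes are understated, with limma 3.58.1 in R 4.3.3, mouse as a block and a trend in the variance, over loci whose mean FPKM reached 1, and p-values were adjusted by Benjamini-Hochberg over all 12032. Same-numbered libraries come from the same mouse by the labels; their deviations from the group means correlated by 0.22 to 0.41, and those of libraries from different mice by -0.42 to 0.45 (medians 0.34 and -0.071). No replicate pair was as close as sampling noise. Reads were recovered as n = (2 FPKM / (upper bound - FPKM)) squared, with the Cufflinks interval; 83.2% of values under 20 reads lay within 0.05 of a whole number. Length and GC content came from GENCODE M21, start-site sequences from RefSeq GRCm38.p6. The members and lists were chosen with earlier results of these data known. Members were named if called, if among the 5 highest or lowest in level, the 5 largest or smallest fitted changes, the 3 highest or lowest correlations with the other members, if under the filter, in a paralog pair or without a ribosomal protein, or if in a short list of well-known members (Rps6, Rplp0, Rpl13a, Rps18, Rpl19, Rps19, Rpl5 and Rpl11). Alternatives are given in the closing section. The Cufflinks intervals and the depths recovered from them cover counting error only. The confidence intervals of the fitted changes come from limma and include the spread between mice. Some results are not reported here, and the plots of single genes leave out 1 member for this reason.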

Additional observations from a re-analysis of the deposited data

Results flagged for a closer look

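Values that stood far from the other mice of their group were searched among the named members, with Dixon's criterion at 95% in groups of 6. Of 128 groups 12 met it, and 9 of the 12 were values of mouse 1. Chance gives about 1 in 20 (6.4) only for independent groups picked without regard to their values. Here some members were named for their fitted changes, and a control value also enters its within-mouse difference. The 12 therefore cannot be set against the 6.4.

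In the control library of mouse 1, Rpl7a was at 147 FPKM (other mice 173 to 186), Rplp0 at 113 (130 to 137), Rps6 at 82.8 (104 to 116) and Rps23 at 36.9 (52.4 to 60.0), the lowest of each group. The within-mouse difference, cocktail minus control on the log2 scale, was the highest in mouse 1 for Rps23 (0.824, other mice -0.097 to 0.037), Rps6 (0.479, 0.019 to 0.11), Rpl9 (0.408, 0.046 to 0.14), Rpl36a (0.407, -0.12 to 0.0056) and Rpl13a (0.278, -0.0099 to 0.057). This is the mouse whose control library deviated with GC content, and the part of GC content in these values was not tested gene by gene.

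Rpl8 was at 174 FPKM in the control library of mouse 2 (other mice 191 to 200.4). The difference of Rps27l was -0.218 in mouse 4 and 0.15 to 0.32 in the others. Rps27rt was at 8.52 FPKM in the cocktail library of mouse 3 and at 0.0061 to 0.13 in the other cocktail libraries, all marked as having too little data.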

How the results depend on the processing

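Under the 17 alternatives run, 0 members were called, including an adjusted p under 0.1, and the median fitted change of the members stayed above 0, from 0.0030 (quantile normalization, 45 of 81 members above 0) to 0.059 (without mouse 6). For the 24 members whose change is given, 16 alternatives gave 384 values, none called, with a smallest adjusted p of 0.178 (limma; Rps27l without mouse 4). The count over all loci was 88 with no replicate block and 104 to 181 with 1 mouse left out, against 180 as reported. Of the 15 alternatives that gave a value for Myc, 9 ended its call, with fitted changes of 0.32 to 0.42 when 1 mouse was left out. The median correlation between members was 0.35 to 0.67 with 1 mouse left out.

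The sign changed in 26 of the 384 values, over 12 members, none of them called in either fit, and the cause was not tested. Quantile normalization gave -0.030 for Rps18, -0.018 for Rps27, -0.0035 for Rpl7l1 and -0.0013 for Rpl13a. Voom on recovered reads gave -0.018 for Rpl7l1, 0.037 for Rps15a and 0.027 for Rpl31. Median-of-ratios scaling gave -0.0063 for Rps18 and -0.0017 for Rpl7l1, and the correction for length and GC content with the replicate block gave -0.0061 for Rpl7l1 and 0.0027 for Rpl8. With 1 mouse left out, the fitted change ran from -0.15 to 0.024 for Rpl34, -0.091 to 0.0086 for Rplp2, -0.049 to 0.035 for Rpl7l1, -0.046 to 0.059 for Rpl36a, -0.039 to 0.015 for Rps15a, -0.034 to 0.0084 for Rpl8, -0.033 to 0.037 for Rps18, -0.026 to 0.0032 for Rpl31, -0.021 to 0.16 for Rps23 and -0.00067 to 0.056 for Rpl36al.

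Subunit genes held at least 303 reads per library. The ranges were lower for Rps27l (73 to 147), Rps19bp1 (139 to 350) and Rpl22l1 (148 to 283), where counting error is larger relative to the value.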
